A study of Mus musculus with 24 samples.

Results

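The Paneth cell fraction of small intestinal crypts was compared with crypt stem cells in mice with an induced conditional knockout of Setd1a. The comparison held 4 Paneth-fraction and 4 stem cell libraries, chosen by the genotype and fraction in their labels, out of 24 libraries in the series. Both fractions came from the same 4 animals, named BN45, BO25, BO57 and BP04, so each animal served as its own reference. These knockout mice were Setd1aFC/FC; Lgr5-eGFP-CreERT2, and the control mice used for 1 later comparison (BN44, BO27, BO58 and BP03) were Setd1aFC/+; Lgr5-eGFP-CreERT2, so that controls also carried 1 conditional allele. Every animal received 1 mg tamoxifen into the peritoneum on each of 3 days, and crypt cells were sorted 4 days after induction. The sort used antibodies to CD24, EpCAM and CD45 with a dead cell stain. The labels do not say which gate defined which fraction. Ages were not given. The Cre is driven from Lgr5, a stem cell gene, and these counts do not give how many cells of either fraction had deleted Setd1a.

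Paneth cells sit at the base of the crypt between the stem cells. They are long-lived secretory cells that release lysozyme, alpha-defensins and other antimicrobial proteins from large granules, and they present Wnt, EGF and Notch ligands to the stem cells beside them. Crypt stem cells carry the R-spondin receptor Lgr5, divide daily and feed the transit-amplifying pool. CD24 is strongly displayed by Paneth cells, and also by enteroendocrine cells, which release hormones, and by tuft cells, which sense luminal chemicals. SETD1A is the catalytic subunit of a COMPASS complex, which places activating methyl marks on histones at promoters.

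The 8 libraries held 25.28 to 38.09 M counts each. The 10 most abundant genes took 27.17% to 57.22% of counts in the Paneth fraction, with the highest share in BN45, and 19.51% to 23.74% in stem cells. Mitochondrial genes took 3.19% to 11.24% in the Paneth fraction and 13.08% to 19.61% in stem cells, and pseudogenes 2.18% to 4.6% and 7.8% to 8.61%, so both shares were lower in every Paneth library than in any stem library. The first principal component held 60.7% of the variance and separated the fractions. The second held 8.9%, and the Paneth library of BP04 lay farthest out on it. Levels are CPM, counts scaled to a common library size with TMM factors within these 8 libraries, and 4 values in a row are in the order BN45, BO25, BO57 and BP04. Because the scaling sets aside the few genes that dominate the Paneth libraries, such levels can sum past the nominal total in a library.

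Setd1a itself (chromosome 7, 127776670 to 127800122, mm10) was low in both fractions. Its levels were 7.11, 5.99, 5.39 and 4.21 CPM in the Paneth fraction and 3.37, 5.32, 5.97 and 3.63 CPM in stem cells, and the groups overlapped. The log2 fold change was 0.32 ± 0.36 (SE), which did not pass edgeR's quasi-likelihood test (adjusted p = 0.535). These counts sum all exons, so they do not check a deletion of part of the gene. Setd1b, the closest relative, stood at 26.7, 21.1, 21.7 and 16.4 CPM in the Paneth fraction and 12.2, 14.7, 14.4 and 15.2 CPM in stem cells. Every Paneth value lay above every stem value, yet the difference missed the threshold (log2 0.59, adjusted p = 0.1001).

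The genes behind the sort and the label checked as follows, and they are no findings. Lyz1, the lysozyme gene (chromosome 10, 117287797 to 117292868), stood at 124279, 63567, 31611 and 36658 CPM in the Paneth fraction against 148, 236, 300.1 and 421 CPM in stem cells. Lgr5 (chromosome 10, 115450311 to 115587780) stood at 61.6, 63.04, 42.6 and 67.6 CPM against 198, 185, 175 and 158 CPM. The fractions thus carried the transcripts their labels name, although Lgr5 was not absent from any Paneth-fraction library. Cd24a, the gene of the CD24 antigen, stood at 4899, 1888, 2495 and 2283 CPM in the Paneth fraction and 449.9, 282, 293 and 283 CPM in stem cells. Epcam stood at 1079, 1072, 955 and 1056 CPM and 2035, 1556, 1254 and 1382 CPM. Ptprc, which encodes CD45, stood at 41.7, 22.99, 30.2 and 24.3 CPM in the Paneth fraction and had 4 counts over the 4 stem libraries, so the RNA of the leukocyte antigen was in the fraction of every animal. Epcam was lower only narrowly (log2 -0.56, adjusted p = 0.0493), and the call was lost for Epcam without BN45, BO25, BO57 or BP04 (0.0508, 0.142, 0.126 and 0.128), with RLE scaling (0.0588) and with a filter at 5 CPM (0.0681) (adjusted p in brackets).

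Of 16226 genes tested, 4892 (30.1%) passed an adjusted p of 0.05, with 2741 (16.9%) higher and 2151 (13.3%) lower in the Paneth fraction. The higher genes moved farther: 801 rose by more than 4 on the log2 scale and 67 fell by more than 4. All 4 Paneth libraries lay above all 4 stem libraries for 3119 genes (19.2%) and below them for 2586 (15.9%). The median log2 fold change of all genes was 0.03. In the Paneth fraction 145 called genes were expressed while no stem library held a count of them. Leaving out 1 animal at a time left 2827 calls without BN45, 3214 without BO25, 2838 without BO57 and 3581 without BP04. With 4 animals the test recovered 27% of 2-fold and 64% of 4-fold changes in simulated counts. Only 200 genes were changed there, far fewer than were called here, and the adjusted threshold is stricter when few genes differ. These shares may therefore understate recovery in the real counts, where it was not measured.

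**Figure D1:**
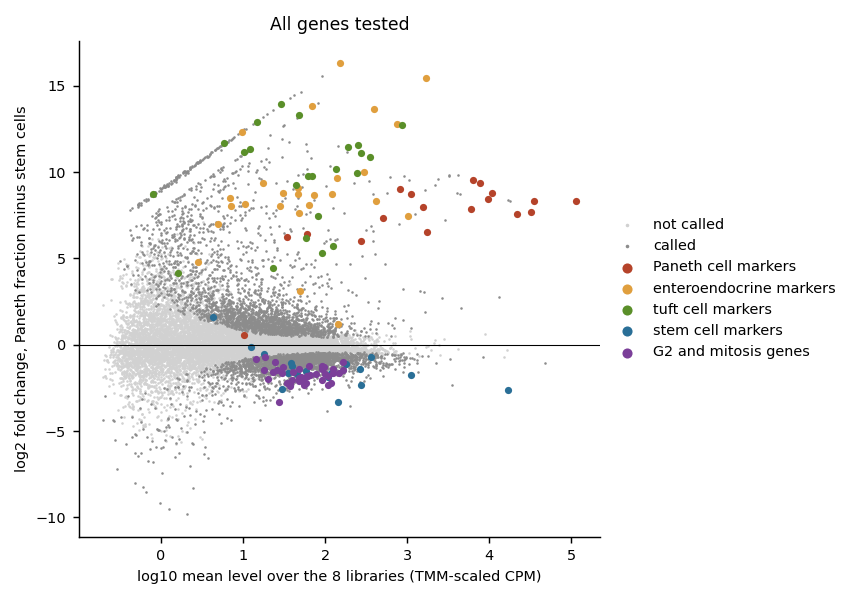
Each point is 1 of the 16226 genes tested, with its mean level over the 8 libraries (log10 CPM, x axis) and its log2 fold change, Paneth fraction minus stem cells (y axis). Coloured points are members of 5 gene lists: Paneth, enteroendocrine and tuft cell markers lie far above 0, and stem cell markers and G2 and mitosis genes below it. The diagonal line of points at the upper left holds genes with no count in stem cells.

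Paneth cell products dominated the Paneth fraction. Of 19 listed Paneth cell markers 18 were tested, 17 were higher, Lyz1 among them, and 0 lower, with a median log2 fold change of 7.92. Together they took 51.6%, 33.9%, 19% and 27.6% of all counts in the Paneth libraries and 0.0871% to 0.282% in stem cells. Itln1, which encodes the sugar-binding lectin intelectin, stood at 76948, 44552, 21090.3 and 32234 CPM against 99.5, 185, 249 and 323 CPM in stem cells. Pla2g2a belongs to the secreted phospholipases but is annotated as a polymorphic pseudogene, so its RNA does not show an active enzyme. It stood at 1489, 1058, 437 and 1104 CPM against 3.35, 5.92, 6.44 and 7.86 CPM. In each case the lowest Paneth library lay far above the highest stem library, with log2 fold changes of 7.59 ± 0.71 and 7.36 ± 0.52 (SE; edgeR adjusted p = 0.00151 and 0.000551). Nupr1, a stress-linked chromatin protein, was 1004, 518, 255 and 374 CPM against 5.94, 11.3, 5.41 and 7.75 CPM. The zinc exporter gene Slc30a2 was the tested member that did not pass, at 24.4, 13.9, 6.498 and 6.52 CPM in the Paneth fraction and 8.11, 4.02, 10.8 and 8.097 CPM in stem cells, and its groups overlapped.

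The alpha-defensins, peptides that puncture bacterial membranes, made up much of this signal. All genes with a Defa symbol took 44%, 23.4%, 12.9% and 19.9% of the counts in the Paneth libraries and at most 0.166% in a stem library. Defa23 stood at 5894, 1758, 434 and 764 CPM in the Paneth fraction and 2.66, 3.38, 2.63 and 4.05 CPM in stem cells (log2 8.704 ± 0.81, SE; adjusted p = 0.00151). Defa26 stood at 4194, 1220.3, 429 and 624 CPM and 1.59, 1.64, 2.41 and 2.67 CPM. Members of this family are near-identical copies, so reads that match several copies may have been divided among them or left uncounted. How far this affects single genes or the family sum was not tested. Mmp7, the protease that activates alpha-defensins, stood at 6948, 3870.1, 1262 and 1893 CPM against 27.02, 23.2, 40.9 and 36.3 CPM.

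The promoters of 4 of these genes are shown because the genes rose together. RefSeq held 14 start sites for 13 of the 19 listed Paneth cell markers. The letters TATAAA, searched on the sense strand in the 250 bases before the start, were in 5 of the 14 windows (35.7%), against 7.59% of 32851 windows of all genes. It was 1 of 6 motifs searched there, the others on both strands, and is marked because it stood out after the search. Some of these markers are alpha-defensin genes, and the Defa23 and Defa30 windows printed here are much alike. Windows of such copies are not independent, so these shares may count related promoters repeatedly. CCAAT was in 7 windows (50%, against 33.8% of all), TTTGAA in 4 (28.6%, against 16%), the octamer ATGCAAAT in 1 (7.14%, against 1.6%), the E-box CAGCTG in 1 (7.14%, against 13%), and the E2F letters TTTCCCGC or TTTGGCGC in 0 (against 1.3%). Sequences run 5′ to 3′ on the strand of the gene, in GRCm38.p6, and capitals mark TATAAA. They are Defa23 (chr8:21054790-21055039, plus strand), Defa30 (chr8:21134400-21134649, plus strand), Mmp7 (chr9:7691840-7692089, plus strand) and Lyz1 (chr10:117292869-117293118, minus strand), of which Lyz1 has no match.
Defa23: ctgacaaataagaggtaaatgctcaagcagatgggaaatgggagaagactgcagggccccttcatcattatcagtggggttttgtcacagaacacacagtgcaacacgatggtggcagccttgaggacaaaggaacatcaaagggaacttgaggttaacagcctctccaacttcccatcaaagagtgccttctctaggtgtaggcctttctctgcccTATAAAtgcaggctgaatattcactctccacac
Defa30: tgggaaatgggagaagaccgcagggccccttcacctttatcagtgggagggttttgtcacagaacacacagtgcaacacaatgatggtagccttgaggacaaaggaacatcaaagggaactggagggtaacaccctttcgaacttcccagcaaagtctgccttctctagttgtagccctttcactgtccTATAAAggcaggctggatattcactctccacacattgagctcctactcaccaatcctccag
Mmp7: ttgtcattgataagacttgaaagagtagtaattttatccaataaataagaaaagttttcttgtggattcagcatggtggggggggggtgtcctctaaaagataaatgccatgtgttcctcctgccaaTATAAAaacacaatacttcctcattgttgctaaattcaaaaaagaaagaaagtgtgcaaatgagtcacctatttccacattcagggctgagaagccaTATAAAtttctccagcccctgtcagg
Lyz1: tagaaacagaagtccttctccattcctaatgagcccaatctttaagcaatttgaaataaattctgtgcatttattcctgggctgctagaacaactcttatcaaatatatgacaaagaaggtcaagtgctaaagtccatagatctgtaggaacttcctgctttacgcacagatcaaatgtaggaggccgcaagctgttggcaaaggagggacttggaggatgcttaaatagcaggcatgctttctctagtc
In Defa23 the match ends 28 bases before the start, in Defa30 it ends 56 bases before it, and Mmp7 holds 2 matches, the nearer one ending 21 bases before the start. The start sites themselves are the annotated ones and were not measured here.

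The Paneth fraction also carried hormone transcripts of enteroendocrine cells. Of 27 listed enteroendocrine markers 26 were tested, 25 were higher and 0 lower, with a median log2 fold change of 8.69. Gip, the incretin hormone of K cells, stood at 2413, 2227, 5071 and 3743 CPM in the Paneth fraction, and 13 counts of it were found over the 4 stem libraries. Ghrl, which encodes ghrelin, stood at 993, 666, 883 and 571 CPM, with 10 counts in stem cells. Sct, which encodes secretin, stood at 168, 307, 288 and 206 CPM against 0.0429, 0.851, 1.19 and 0.529 CPM in stem cells. The log2 fold changes of these 3 hormones were 15.46, 13.65 and 8.74 (adjusted p = 0.000489, 0.000116 and 0.000335), and no Paneth library overlapped a stem library. The granule genes Chga and Chgb were 154, 145, 116 and 88.04 CPM and 366, 907, 507 and 614 CPM in the Paneth fraction, against at most 2.71 CPM in a stem library.

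Some hormones differed widely between animals within the fraction. Gcg, which encodes glucagon-like peptides, stood at 31.5, 2668, 519 and 65.5 CPM, and Sst, somatostatin of D cells, at 1847, 205, 2298 and 1595 CPM. Gcg was highest where Sst was lowest, in BO25. Cck, the cholecystokinin gene of I cells, stood at 56.02, 429, 507 and 114 CPM. Neurog3, the factor that starts enteroendocrine differentiation, was the tested member that did not pass: its levels were 7.88, 8.26, 3.36 and 1.06 CPM in the Paneth fraction and 0.451, 0, 1.54 and 0 CPM in stem cells (adjusted p = 0.0645). With 1 animal left out the call was lost for Gcg without BN45 (0.0708), the value in brackets being the adjusted p.

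Transcription factors that hold the endocrine fate were in the same libraries. Isl1, a LIM homeodomain factor, stood at 111, 109.6, 213 and 121 CPM with 1 count over all stem libraries, a ratio of 28067-fold (95% counting interval 5037 to 1108574). Pax6 stood at 42.6, 58.3, 81.3 and 43.1 CPM against 0.665, 0.0396, 0.05303 and 0.212 CPM. Of 32 factors listed for all crypt lineages, 24 were higher and 2 lower, with a median log2 fold change of 3.92, so the fraction held regulators of several lineages. Atoh1, the switch to the secretory fate, stood at 66.6, 50.9, 22.2 and 27.1 CPM against 6.05, 2.38, 7.504 and 4.15 CPM, and Spdef, which acts in goblet and Paneth cells, at 36.3, 20.6, 10.7 and 16.7 CPM against 0.536, 0.0198, 0.902 and 0.847 CPM. Leaving out 1 animal ended the call for Spdef without BN45 (0.0584) (adjusted p in brackets).

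The promoters of Gip and Isl1 are shown as the hormone with the highest level and the factor with the smallest p in the list. Capitals mark the E-box letters CAGCTG, which read the same on both strands. The E-box was in 7 of 30 windows (23.3%) of 23 matched enteroendocrine markers and in 13% of all windows. Of the same 6 motifs the others were near the share of all windows here, with CCAAT in 11 (36.7%), TTTGAA in 5 (16.7%), TATAAA in 2 (6.67%) and E2F and octamer letters in 0. Gip lies at chr11:96024295-96024544, plus strand, and Isl1 at chr13:116309689-116309938, minus strand.
Gip: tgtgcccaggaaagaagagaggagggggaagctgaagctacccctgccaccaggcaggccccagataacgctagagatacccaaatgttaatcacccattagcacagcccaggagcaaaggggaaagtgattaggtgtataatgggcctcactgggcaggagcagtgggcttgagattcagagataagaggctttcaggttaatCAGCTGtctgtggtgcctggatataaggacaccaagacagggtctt
Isl1: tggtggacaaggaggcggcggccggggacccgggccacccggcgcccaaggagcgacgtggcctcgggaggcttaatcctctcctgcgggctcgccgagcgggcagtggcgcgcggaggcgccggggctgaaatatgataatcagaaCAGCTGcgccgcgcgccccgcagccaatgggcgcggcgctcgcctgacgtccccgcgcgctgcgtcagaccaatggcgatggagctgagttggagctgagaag
Each window holds 1 such E-box, ending 41 bases before the start in Gip and 98 bases before it in Isl1.

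Machinery for regulated secretion and for sensing nutrients rose with the hormones. Among regulated secretion genes 24 of 25 tested were higher and 0 lower (median log2 6.84). Scg2, a granin of dense-core granules, stood at 31.5, 67.8, 78.5 and 69.3 CPM with 1 count in stem cells, a ratio of 12483-fold (95% counting interval 2240 to 493062). Rab3d, a vesicle GTPase of exocrine granules, stood at 113, 77.3, 63.03 and 38.6 CPM against 14.8, 10.7, 9.73 and 6.51 CPM. Of 16 ion channel genes of excitable endocrine cells, 16 were higher, among them Abcc8, a subunit of the ATP-sensitive potassium channel, at 23.3, 29.8, 41.9 and 28.8 CPM, and Trpa1, an irritant channel, at 18.3, 39.3, 21.3 and 2.96 CPM. Of 8 nutrient and bile acid receptors tested, 6 were higher: Ffar3, a receptor for short-chain fatty acids, stood at 36.2, 15.9, 25.03 and 15.3 CPM and Gpr119, a lipid receptor, at 4.64, 18.8, 17.3 and 4.31 CPM, each with 1 count in stem cells. In the latter 2 lists and for secretion, members at 0 in stem cells set at their lower bound gave medians of 7.92, 8.43 and 6.76 in place of 9.15, 8.99 and 6.84.

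Tuft cell transcripts were a further component. Of 23 tuft cell markers tested, 22 were higher and 0 lower, with a median log2 fold change of 10.2, or 9.96 with the 4 members absent from stem cells at their lower bound. Every Paneth library lay above every stem library for all 23. Over all genes tested 16.9% were called higher, and 19.2% had all Paneth libraries above all stem libraries. Avil, which encodes the actin-binding protein advillin, stood at 269, 216, 342 and 247 CPM against 0.515, 0.277, 0 and 0.106 CPM. Trpm5, the taste channel through which tuft cells signal, stood at 341, 277, 469 and 447 CPM against 0.0858, 0, 0 and 0.582 CPM, and Dclk1, a kinase widely used as tuft marker, at 843, 322, 916 and 699 CPM. Ptgs1, a prostaglandin synthase, stood at 108, 82.8, 125 and 69.5 CPM with 1 count in stem cells, a ratio of 14548-fold (95% counting interval 2611 to 574615). Gfi1b, a tuft lineage repressor, stood at 27.5, 17.7, 39.4 and 32.5 CPM with no stem count, at least 1706-fold higher when 3 counts are allowed over the stem group. Plcg2, a phospholipase shared with blood cells, stood at 172, 163, 208 and 179.6 CPM and 5.3, 4.79, 4.67 and 3.28 CPM, a log2 fold change of 5.34 ± 0.20 (SE; adjusted p = 0.000108).

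**Figure D2:**
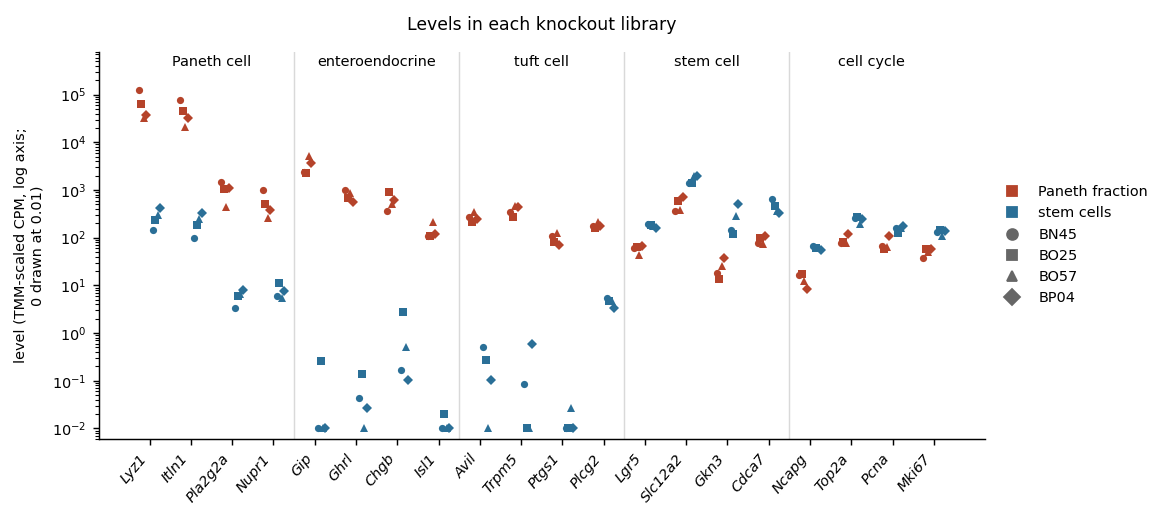
Each point is 1 library of 1 animal: level in CPM (log axis, 0 drawn at 0.01) of 20 genes of 5 groups, with Paneth-fraction libraries in red, stem cell libraries in blue and the animal as symbol. Genes of the 3 secretory or sensory groups lie far higher in the Paneth fraction, such as Lyz1 with a lowest Paneth level of 31611 CPM and a highest stem level of 421 CPM, while the stem cell and cell cycle genes lie lower.

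Goblet and enterocyte genes were also present. Of 12 goblet cell markers tested, 10 were higher and 0 lower, with a median log2 fold change of 3.13. The call count rested on the animals used: it was 4 without BN45 and 5 without BO25. Muc2, the main mucin of goblet cells, stood at 1273, 913, 229.8 and 409 CPM in the Paneth fraction and 0.0644, 3.8, 37.5 and 7.65 CPM in stem cells. Spink4, a protease inhibitor of goblet and Paneth cells, stood at 13439, 4511, 1696 and 3521 CPM and 14.8, 15.6, 80.2 and 39.8 CPM, and Tff3, trefoil factor, at 970.1, 729.9, 313 and 265 CPM and 27.9, 10.9, 72.7 and 53 CPM. Muc2, Spink4 and Tff3 were highest in the Paneth library of BN45 and lowest in that of BO57 or BP04, and no library of either fraction overlapped the other. Single calls were lost for Muc2 without BN45, BO25 or BP04 (0.0527, 0.0898 and 0.0617) and Tff3 without BN45 (0.0811) (adjusted p in brackets).

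Of 18 enterocyte markers, 8 were higher and 3 lower, with a median log2 fold change of 1.43. Over all genes 16.9% were higher and 13.3% lower, so the lower members were near the share of all genes. Without BO57 7 were called in all. Fabp1, a fatty acid carrier, stood at 265, 477, 457 and 359.9 CPM against 9.85, 6.37, 28.2 and 24.7 CPM, and Apoa1, an apolipoprotein, at 17.8, 207, 451 and 21.4 CPM against 2.103, 4.22, 11.2 and 6.85 CPM. Krt20, a keratin of mature epithelium, stood at 44.1, 158, 134 and 29.9 CPM and 1.695, 0.9303, 2.09 and 2.57 CPM. Mep1a, a brush border protease, went the other way, with 4.87, 10.5, 5.91 and 5.93 CPM in the Paneth fraction and 15.1, 22.05, 15.1 and 17.97 CPM in stem cells (log2 -1.41, adjusted p = 0.00767). The Paneth fraction was therefore not uniformly richer in enterocyte transcripts. The call was lost for Apoa1 without BN45 (0.0534) (adjusted p in brackets).

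Of 15 immune cell markers 4 passed the filter on low counts and 1 of them, Lyz2, was higher. The other 3 tested were not called. The macrophage gene Cd68 and the B cell gene Ms4a1 had negative log2 fold changes, -1.36 and -1.43 (edgeR adjusted p = 0.107 and 0.617). Itgae, a gene of T cells, had 1.26 (adjusted p = 0.682). Mean levels of these genes were at most 3.45 CPM in either fraction. Other T cell, B cell and macrophage genes such as Cd3e, Cd79a and Csf1r were among the 11 that did not pass the filter. Lyz2, the lysozyme gene of macrophages, stood at 185, 123, 55.2 and 65.3 CPM against 0.8798, 0.534, 0.6099 and 1.98 CPM, but it is nearly identical to Lyz1 and reads may have been shared between them. Summed immune marker levels were 59.9 to 186 CPM in the Paneth fraction, most of it Lyz2, and 7.51 to 41.6 CPM in stem cells. Of 11 stromal and endothelial markers 1 was tested and 0 were called, with sums of at most 3.94 CPM. The part of other cell types in any single difference was not tested, and in such bulk libraries fewer cells of a type and less RNA per cell cannot be told apart.

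**Figure D3:**
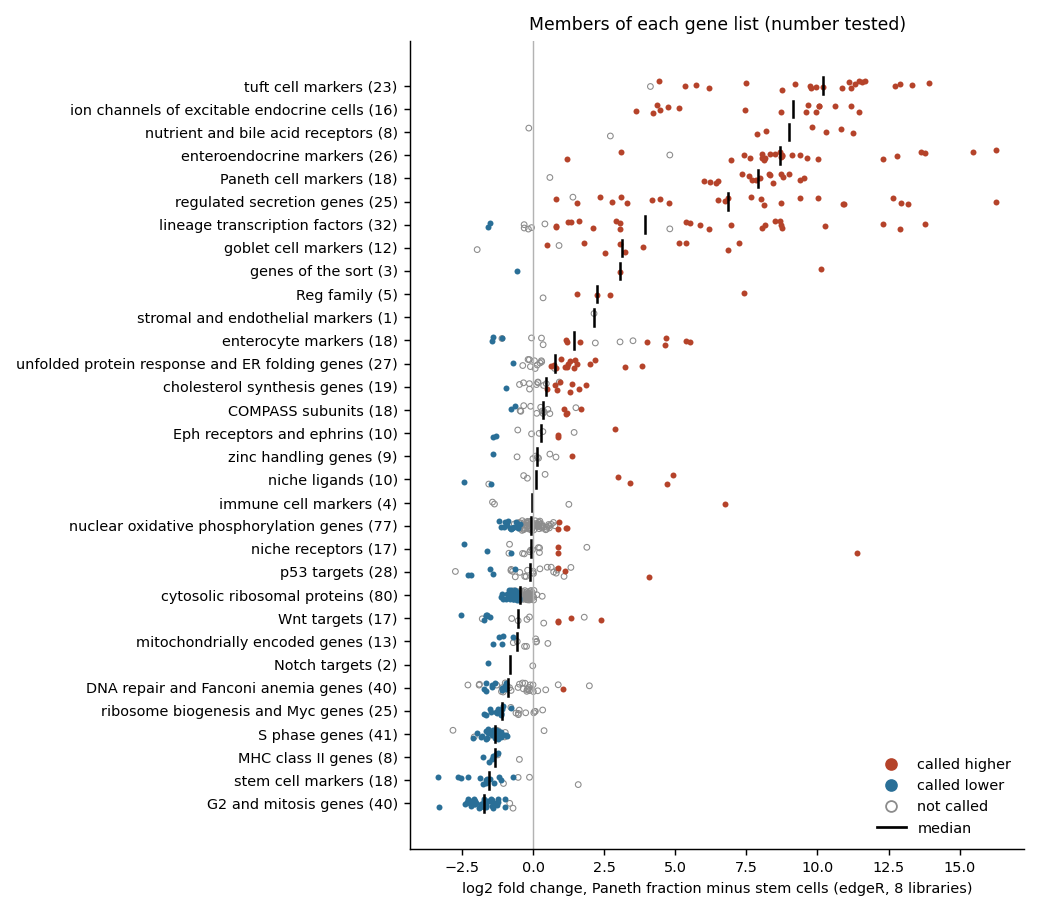
Each point is 1 tested member of a gene list, placed by its log2 fold change, Paneth fraction minus stem cells (x axis); filled red points were called higher, filled blue points called lower and open points not called, and the black bar is the median. Tuft, enteroendocrine and Paneth cell markers have medians of 10.2, 8.69 and 7.92, and G2 and mitosis genes have the lowest, -1.72.

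Stem cell markers were lower in the Paneth fraction but not absent. Of 18 tested, 14 were lower, Lgr5 among them, and 0 higher, with a median log2 fold change of -1.57. Gkn3, a secreted gastrokine, stood at 17.9, 13.6, 25.9 and 37.3 CPM in the Paneth fraction and 146, 119.6, 278 and 498 CPM in stem cells (log2 -3.33 ± 0.18, SE; adjusted p = 0.000243). Cdca7, a Myc-linked cell cycle gene, stood at 76.1, 101, 74.3 and 108 CPM and 659, 455, 371 and 336 CPM, and Slc12a2, a chloride cotransporter, at 362, 576, 383 and 719.6 CPM and 1435, 1427, 1925 and 2004 CPM. For these 3 genes every Paneth library lay below every stem library of the 4 animals. Olfm4, a secreted stem cell protein, stood at 2724, 5104, 4259 and 7503 CPM in the Paneth fraction, against 38642, 28192, 24268 and 25896 CPM in stem cells. Msi1, an RNA-binding protein listed as a stem cell marker, had the opposite sign, with 9.81, 3.76, 5.43 and 6.71 CPM in the Paneth fraction and 0.966, 2.296, 2.33 and 2.83 CPM in stem cells, and was not called (adjusted p = 0.0702).

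Of 10 niche ligands tested 4 were higher and 2 lower, with 3 calls in all without BN45. Over all genes 16.9% were higher and 13.3% lower. Wnt3, the Wnt ligand of the niche, stood at 63.5, 33.5, 12.7 and 21.1 CPM against 3.305, 0.891, 1.38 and 0 CPM in stem cells (log2 4.91 ± 0.88, SE; adjusted p = 0.00998). Egf stood at 7.496, 6.98, 1.48 and 3.68 CPM against 2.15, 0.732, 0.0265 and 0.265 CPM, with overlapping groups and a log2 fold change of 3.399 (adjusted p = 0.0162). The Notch ligands Dll4 and Jag2 stood at 15.1, 16.6, 18.6 and 11.2 CPM and 3.86, 7.53, 10.8 and 3.59 CPM in the Paneth fraction, and at 4.76, 0.218, 5.04 and 1.27 CPM and 0.0644, 1.15, 0.663 and 0 CPM in stem cells. All 4 rose (adjusted p = 0.0314 for Dll4 and 0.0162 for Jag2). With 1 animal left out, calls were lost for Wnt3 without BN45 (0.0578), Egf without BO25 (0.0546), Dll4 without BN45, BO57 or BP04 (0.0738, 0.0575 and 0.0769) and Jag2 without BN45 or BO57 (0.0756 and 0.0529) (adjusted p in brackets). Without the animal as block Egf also lost its call (adjusted p = 0.074).

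The ligands Btc and Hbegf were lower in the Paneth fraction. Btc, betacellulin, stood at 4.71, 3.29, 4.39 and 4.87 CPM in the Paneth fraction and 24.9, 32.2, 16.2 and 21.2 CPM in stem cells (log2 -2.42, adjusted p = 0.00366), and Hbegf, the heparin-binding EGF-like factor, at 22.9, 14.2, 17.2 and 16.5 CPM and 128, 35.6, 32.6 and 38.7 CPM (log2 -1.48, adjusted p = 0.0114). Areg, amphiregulin, stood at 7.19, 2.08, 3.803 and 3.03 CPM and 24.1, 16.8, 4.03 and 8.04 CPM and did not pass (adjusted p = 0.0565), although it did under 7 of the alternatives run. Dll1, Tgfa, which Paneth cells are known to make, and Jag1 did not pass either, with log2 fold changes of 0.42, -0.203 and -0.33. Wnt6, Wnt9b and Wnt11 were too low to be tested, none above 1.99 CPM in any library.

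On the receiving side, 3 of 17 niche receptors were higher and 3 lower, shares near those of all genes (16.9% and 13.3%). Ret, a receptor tyrosine kinase, had no stem count and 14.3, 11.4, 9.19 and 3.65 CPM in the Paneth fraction. Ephb2 and Ephb3, which position cells along the crypt axis, were higher, with 21.9, 22, 35.6 and 25.2 and 47.1, 22.3, 18.8 and 18.2 CPM against 9.12, 15.5, 15.1 and 17.4 and 14.9, 17.5, 12.3 and 10.2 CPM. Their adjusted p were 0.0286 and 0.0484, and the receptor count fell to 2 calls without BN45, BO25 or BO57. Efnb2, an ephrin ligand, stood at 37.2, 18.6, 21.7 and 33.6 CPM and 2.94, 2.83, 2.84 and 7.12 CPM (adjusted p = 0.00201), whereas Efna1 was lower, with 33.1, 63.1, 40.4 and 56.4 CPM and 122, 127, 109 and 105 CPM. Among Eph receptors and ephrins 3 of 10 were higher and 2 lower, beside the same 16.9% and 13.3% of all genes. That list had 3 calls in all without BN45, BO25 or BO57. Notch2 was lower (log2 -2.44, adjusted p = 0.0494), and Erbb2 was lower (log2 -0.78, adjusted p = 0.0406). The other lower receptor was Lgr5, whose levels were given above as a check of the labels. Calls were lost for Ephb2 without BN45, BO25 or BO57 (0.0917, 0.0515 and 0.106), Ephb3 without BN45, BO25, BO57 or BP04 (0.118, 0.0629, 0.0922 and 0.104), Erbb2 without BN45, BO25, BO57 or BP04 (0.121, 0.089, 0.13 and 0.0514) and Notch2 without BN45, BO25, BO57 or BP04 (0.0743, 0.118, 0.124 and 0.135) (adjusted p in brackets). The call of Ephb3 was also lost without the animal block (0.0564), with upper-quartile scaling (0.0634), with no filter on low counts (0.0594) and without the 20 most abundant genes (0.0568), that of Erbb2 without the block (0.0964), and that of Notch2 with RLE scaling (0.0511) and no filter (0.0593).

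Pathway targets split. Of 17 Wnt targets, 4 were higher and 6, Lgr5 among them, lower in the Paneth fraction, beside 16.9% and 13.3% over all genes. Without BN45 or BO57 there were 6 calls in all. Nkd1, a Wnt feedback inhibitor, stood at 13.5, 9.36, 18.7 and 8.55 CPM against 3.35, 3.404, 0.981 and 2.06 CPM, while Myc stood at 41.8, 69.1, 51.3 and 67.02 CPM against 256, 196, 181 and 139 CPM and the ubiquitin ligase gene Rnf43 at 26.7, 14.9, 11.8 and 15.9 CPM against 76.9, 54.2, 41.8 and 41.3 CPM. Nkd1 rose by 2.39 on the log2 scale, and Myc and Rnf43 fell by 1.74 and 1.65. Of 8 genes listed as Notch targets 2 passed the filter, too few to describe the pathway. Hes1, the Notch effector that represses Atoh1, stood at 33.7, 53.1, 45.5 and 53.8 CPM against 108, 148, 158 and 145 CPM and fell by 1.597 (adjusted p = 0.00118), whereas Hes6 stood at 44.6, 70.1, 63.2 and 45.7 CPM against 66.95, 48.7, 68.3 and 42.3 CPM and did not pass (adjusted p = 0.968). Hes5, Hes7, Hey1, Heyl, Nrarp and Dtx1 were not tested for lack of counts. The call was lost for Nkd1 without BN45 (0.0699) (adjusted p in brackets).

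Division genes were lower in the Paneth fraction. Of 40 G2 and mitosis genes 38 were lower and 0 higher, with a median log2 fold change of -1.72. Ncapg, a condensin subunit, stood at 16.8, 16.99, 12.1 and 8.49 CPM in the Paneth fraction and 66.99, 59.7, 61.6 and 54.9 CPM in stem cells (log2 -2.21 ± 0.20, SE; adjusted p = 0.00146). Top2a, the topoisomerase of dividing cells, stood at 78.4, 81.1, 76.98 and 117 CPM and 260.5, 271, 192 and 249 CPM, and Ccnb1, cyclin B, at 25.7, 49.6, 35.9 and 34.5 CPM and 217, 145, 153 and 199 CPM. The highest Paneth library lay below the lowest stem library for each of the 3. Mki67, the common proliferation marker, stood at 37.1, 57.9, 48.9 and 59.1 CPM and 132, 145, 108 and 139 CPM. Their transcripts were thus still measured in every Paneth library.

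Of 41 S phase genes 33 were lower and 0 higher, with a median of -1.33 and with 20 calls without BN45 and 15 without BO57. Pcna, the replication clamp, stood at 66.6, 56.9, 64.8 and 109 CPM and 160.2, 126, 161 and 173 CPM, Prim1, a primase subunit, at 31.7, 37.4, 53.5 and 67.6 CPM and 165, 109, 133 and 165 CPM, and Mcm4, a helicase subunit, at 29.4, 43.6, 53.4 and 53.3 CPM and 152, 106, 116 and 109 CPM. Their log2 fold changes were -1.099, -1.63 and -1.44, and each group lay apart. Cdkn1a, which encodes the cell cycle inhibitor p21, went the opposite way, at 185, 197, 249 and 163 CPM against 8.73, 12.9, 13.4 and 12.4 CPM. It rose by 4.07 on the log2 scale (SE 0.18, adjusted p = 0.000155).

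The promoters of the 5 G2 and mitosis genes of smallest p are shown because 38 of 40 members fell together. Capitals mark the CCAAT box (CCAAT, or ATTGG on the other strand) and the cell cycle homology region CHR (TTTGAA, or TTCAAA on the other strand), elements known from mitotic promoters. RefSeq held 36 windows for 34 of the 40 genes. The CCAAT box was in 30 of the 36 (83.3%), against 33.8% of all 32851 windows, and the CHR in 14 (38.9%) against 16%. The E-box was in 4 (11.1%), the E2F letters in 1 (2.78%), and the TATA box and octamer in 0. Coordinates in GRCm38.p6 are chr5:45669675-45669924, plus strand for Ncapg, chr3:27153879-27154128, minus strand for Ect2, a regulator of cytokinesis, chr2:127133955-127134204, minus strand for Ncaph, a further condensin subunit, chr11:99024190-99024439, minus strand for Top2a and chr13:100786487-100786736, minus strand for Ccnb1.
Ncapg: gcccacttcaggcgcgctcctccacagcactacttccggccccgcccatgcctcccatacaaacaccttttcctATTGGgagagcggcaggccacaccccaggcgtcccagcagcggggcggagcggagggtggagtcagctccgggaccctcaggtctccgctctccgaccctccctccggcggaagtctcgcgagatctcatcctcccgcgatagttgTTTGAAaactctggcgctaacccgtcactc
Ect2: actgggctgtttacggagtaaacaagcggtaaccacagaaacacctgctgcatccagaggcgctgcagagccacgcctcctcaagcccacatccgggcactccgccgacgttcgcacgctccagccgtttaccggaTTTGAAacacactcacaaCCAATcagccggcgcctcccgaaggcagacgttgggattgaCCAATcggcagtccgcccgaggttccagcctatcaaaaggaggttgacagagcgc
Ncaph: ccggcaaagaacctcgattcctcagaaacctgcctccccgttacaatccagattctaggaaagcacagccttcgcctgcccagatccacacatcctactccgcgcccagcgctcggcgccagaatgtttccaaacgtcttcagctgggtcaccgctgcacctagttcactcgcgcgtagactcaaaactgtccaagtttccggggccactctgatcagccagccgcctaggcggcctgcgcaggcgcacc
Top2a: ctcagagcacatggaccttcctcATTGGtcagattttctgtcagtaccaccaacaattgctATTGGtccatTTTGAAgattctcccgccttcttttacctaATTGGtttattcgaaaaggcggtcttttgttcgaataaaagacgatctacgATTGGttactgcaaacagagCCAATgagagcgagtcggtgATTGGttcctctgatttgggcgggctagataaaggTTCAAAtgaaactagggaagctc
Ccnb1: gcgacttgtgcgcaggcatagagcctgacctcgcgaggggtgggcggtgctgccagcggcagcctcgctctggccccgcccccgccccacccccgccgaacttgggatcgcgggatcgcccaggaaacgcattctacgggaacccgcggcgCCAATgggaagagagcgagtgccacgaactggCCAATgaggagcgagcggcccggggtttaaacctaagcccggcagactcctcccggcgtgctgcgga
Ncapg holds 1 CCAAT box and 1 CHR, Ect2 holds 2 and 1, Top2a holds 6 and 2, Ccnb1 holds 2 and 0, and Ncaph holds neither within this window. All 5 genes fell. The S phase windows had the CCAAT box in 23 of 38 (60.5%) and the E2F letters TTTCCCGC or TTTGGCGC, on either strand, in 7 (18.4%), against 1.3% of all windows.

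Part of the growth genes were lower. Of 25 ribosome biogenesis and Myc genes 15 were lower and 0 higher (median -1.11), among them Ncl, nucleolin, with 289, 296, 256 and 336 CPM against 633, 647, 584 and 571 CPM, and Npm1, nucleophosmin, with 295, 356, 315 and 402 CPM against 1029, 711, 793 and 807 CPM. Of 80 cytosolic ribosomal protein genes 29 were lower and 0 higher (median -0.45), with 10 calls without BO25, 8 without BO57 and 12 without BP04. Rpl4, for example, stood at 1278, 1618, 1237 and 1573 CPM against 3758, 2770.1, 2521 and 2943 CPM. Many pseudogenes copy ribosomal protein genes, so reads of this family may have been divided among copies or left uncounted. The pseudogene share itself was lower in the Paneth fraction. The call of Rpl4 without BO57 (0.0516) was lost (adjusted p in brackets).

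Part of the protein folding genes of the secretory pathway were higher. Of 27 unfolded protein response and ER folding genes 15 were higher, 1 was lower and 11 did not pass (median 0.76). The shares over all genes were 16.9% higher and 13.3% lower. Ern1, the sensor kinase IRE1, stood at 26.6, 17.4, 20.6 and 19.03 CPM against 4.25, 6.23, 5.52 and 4.84 CPM, Atf6, a further sensor, at 48.1, 44.2, 34.2 and 34.7 CPM against 16.7, 11.7, 16.3 and 11.2 CPM, and the chaperone gene Calr at 219, 236, 235 and 215 CPM against 55.7, 110.1, 92.01 and 76.3 CPM. Every Paneth library lay above every stem library in the 3 cases. Edem1, which clears misfolded glycoproteins, rose by 2.18 on the log2 scale (adjusted p = 0.00193). Agr2, a disulfide isomerase of secretory cells and a member of the goblet list, stood at 1299, 2059, 1108 and 1552 CPM and 65.5, 61.1, 686 and 259 CPM. The call was lost for Agr2 without BN45, BO25 or BP04 (0.12, 0.0585 and 0.0503) (adjusted p in brackets).

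The Reg genes, which encode antimicrobial lectins, differed strongly between animals in both fractions. Reg3g stood at 9015, 4872, 751 and 3709.9 CPM in the Paneth fraction and 1231, 1234, 114 and 402 CPM in stem cells, and Reg3b at 2162, 889.96, 90.8 and 916 CPM and 983, 479.6, 26.3 and 184 CPM. Their groups overlapped, but each animal had more of both in its Paneth fraction, and with the animal in the model both rose (log2 2.696 and 1.53, adjusted p = 0.00154 and 0.00905). BO57 was lowest of the 4 animals in both fractions for both genes. Reg3a rose by 2.26 (adjusted p = 0.02704) and Reg4, which enteroendocrine cells also make, by 7.42 (adjusted p = 0.00407). Reg1 stood at 17.4, 23.4, 9.71 and 32.2 CPM and 19.4, 27.1, 7.504 and 11.99 CPM and did not pass (adjusted p = 0.444). Without the animal as block, Reg3b lost its call (adjusted p = 0.362), and with 1 animal left out so did Reg3a without BO25, BO57 or BP04 (0.0753, 0.0826 and 0.0724) (adjusted p in brackets).

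Zinc handling genes, of interest because Paneth granules are rich in zinc, were mixed: of 9 tested 1 was higher and 1 lower. The shares over all genes were 16.9% higher and 13.3% lower. Slc39a14, a zinc importer, stood at 33.8, 20.7, 27.9 and 24.8 CPM against 5.56, 11.3, 15.4 and 10.8 CPM, and the metallothionein gene Mt1 at 114, 75.7, 41.8 and 54.9 CPM against 193, 214, 138 and 166 CPM. Slc39a14 rose by 1.37 (adjusted p = 0.0265) and Mt1 fell by 1.397 (adjusted p = 0.00484). Without BO57 or BP04 1 of these calls was left. The lost call was that of Slc39a14 without BO57 or BP04 (0.051 and 0.0582) (adjusted p in brackets).

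The p53 targets were mixed, and the calls among DNA repair genes were lower but for 1. Of 28 p53 targets 3 were higher, Cdkn1a, Gadd45a and Plk2, and 5 lower, beside 16.9% and 13.3% over all genes. The p53 list had 4 calls in all without BN45, BO25 or BO57. Pmaip1, the pro-death gene Noxa, stood at 17.3, 17.9, 18.8 and 12.6 CPM against 238, 52.6, 71.6 and 49.7 CPM, and Ephx1, an epoxide hydrolase, at 14.1, 25.1, 6.61 and 19.97 CPM against 94.7, 56.2, 46.03 and 80.6 CPM, so these targets were lower in every Paneth library. Of 40 genes that act in DNA repair or the Fanconi pathway 11 were lower and 1, Prkdc, was higher (median -0.87), with 5 or 6 calls in all without BN45, BO25 or BO57. Chek2, a checkpoint kinase, stood at 15.7, 23.8, 19.1 and 26.3 CPM and 65.99, 65.6, 54.8 and 81.7 CPM. Among those named, calls were lost for Gadd45a without BO25 or BO57 (0.0569 and 0.056), Plk2 without BN45, BO57 or BP04 (0.0848, 0.101 and 0.0827) and Prkdc without BN45 or BO25 (0.0572 and 0.080) (adjusted p in brackets).

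Energy genes changed in part. Of 77 nuclear oxidative phosphorylation genes 4 were higher and 15 lower (median -0.07), beside 16.9% and 13.3% over all genes, and of 13 mitochondrially encoded genes 0 were higher and 5 lower (median -0.56). Sdha, a subunit of succinate dehydrogenase, stood at 213, 239.7, 244 and 224 CPM against 669.96, 446, 561 and 486 CPM, whereas Ndufb3, a complex I subunit, stood at 102, 95.4, 107 and 115 CPM against 30.99, 46.2, 49.7 and 62.5 CPM. Sdha fell by 1.22 and Ndufb3 rose by 1.19, each with non-overlapping groups. In the 16-library fit with control animals, given below, Sdha had -1.22 in knockout and -1.08 in control animals. Ndufb3 had 1.18 in knockout and -0.26 in control animals, and that difference did not pass (edgeR interaction test, adjusted p = 0.999). The nuclear count was 34 by DESeq2 and 8 without BO57, and the mitochondrially encoded count 8 by DESeq2, 2 without the animal block and 3 without BO25 or BP04. Of 19 cholesterol synthesis genes 8 were higher and 1 lower (median 0.46), beside the same 16.9% and 13.3% of all genes.

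Antigen presentation was on the stem cell side. Of 8 MHC class II genes tested 6 were lower and 0 higher, with a median log2 fold change of -1.36. H2-Ab1, a chain of the class II molecule, stood at 77.7, 246, 145 and 136 CPM in the Paneth fraction and 691, 728, 379 and 284 CPM in stem cells, and its invariant chain gene Cd74 at 60.2, 212, 188 and 159 CPM and 251, 640.4, 402 and 220.02 CPM. Both fell, by 1.77 and 1.31 on the log2 scale (adjusted p = 0.0135 and 0.0146), with the lowest levels in the Paneth library of BN45. The call was lost for Cd74 without BN45 or BO25 (0.0502 and 0.0521) (adjusted p in brackets).

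The list of COMPASS subunits holds members of the SETD1 complexes and of the related MLL complexes. Of 18 tested 4 were higher and 2 lower (median 0.34), near the 16.9% and 13.3% over all genes, with 2 calls without BN45 and 3 without BO57 or BP04. Kmt2a, the MLL methyltransferase, stood at 73.6, 55.04, 64.1 and 68.8 CPM in the Paneth fraction and 19.1, 20.7, 24 and 16.9 CPM in stem cells (log2 1.70 ± 0.18, SE; adjusted p = 0.00245). Cxxc1, the CpG-binding subunit of the SETD1 complexes, stood at 31.3, 30.3, 23.1 and 27.2 CPM and 13.3, 8.89, 13.8 and 13.3 CPM (log2 1.19, adjusted p = 0.0121). The shared core subunit Wdr5 was lower, at 21.4, 14.98, 15.95 and 14.2 CPM and 36.9, 23.1, 27.9 and 25.4 CPM, as was Ash2l (log2 -0.77 and -0.65). Kmt2b and Kmt2c rose by 1.08 and 1.16. Kmt2d, Rbbp5, Dpy30, Hcfc1, Wdr82, Bod1l, Men1, Ncoa6, Paxip1 and Kdm6a did not pass, with log2 fold changes from -0.46 for Rbbp5 to 1.503 for Kmt2d, and Pagr1a was not tested. Calls were lost for Cxxc1 without BN45 (0.0515), Wdr5 without BN45, BO25, BO57 or BP04 (0.054, 0.0527, 0.0635 and 0.0582), Ash2l without BN45, BO57 or BP04 (0.0556, 0.0736 and 0.0771) and Kmt2b without BN45, BO57 or BP04 (0.122, 0.119 and 0.0659) (adjusted p in brackets).

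Among all genes with a mean of at least 5 CPM, those rising most included genes known from endocrine and tuft cells. Cpe, the carboxypeptidase that trims prohormones, stood at 162, 269, 508 and 288 CPM with no stem count, at least 18781-fold higher. Pik3r5, a regulatory subunit of a phosphoinositide kinase, stood at 178, 119, 241 and 194 CPM and was at least 10586-fold higher, Sh2d7, an adaptor, at least 4605-fold, and Inpp5d, a lipid phosphatase known from blood cells, at least 4275-fold. Iapp, islet amyloid polypeptide, stood at 89.1, 4.71, 156 and 152 CPM, at least 6009-fold higher on average, with BO25 far below the other animals. Plcb2, a tuft cell phospholipase, and Tmem229a were at least 3565-fold and 2389-fold higher.

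The genes rising with the smallest p, a choice that favours a low spread, were these. Pygl, liver glycogen phosphorylase, stood at 169, 97.2, 204 and 179.9 CPM with 1 stem count (adjusted p = 6.96e-05), and Bmx, a Tec family kinase, at 177, 79.2, 188 and 125 CPM with 1 stem count (adjusted p = 6.96e-05). St18, a zinc finger factor of endocrine cells, stood at 78.8, 50.2, 146 and 83.8 CPM and Agt, angiotensinogen, at 72.1, 67.4, 65.5 and 44.3 CPM, each with 1 stem count, and Rgs22 stood at 51.5, 53.8, 80.6 and 49.5 CPM with 2. Their highest Paneth library was within 3-fold of the lowest.

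Genes falling most or with the smallest p in the Paneth fraction included transporters and a metabolic enzyme. Slc1a2 and Slc1a3, glutamate transporters, stood at 0.309, 2.52, 0.185 and 6.83 and 8.42, 8.66, 6.87 and 7.58 CPM in the Paneth fraction, against 21.8, 24.1, 40.4 and 32.4 and 47.2, 38.4, 43.2 and 35.1 CPM in stem cells. Cyp2e1, a cytochrome P450, stood at 5.56, 10.9, 9.304 and 31.2 CPM against 205, 67.4, 219 and 289.6 CPM. No library of the Paneth fraction reached any stem library in these 3 genes. The call was lost for Slc1a2 without BN45 (0.0799) (adjusted p in brackets).

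Kcne3, a potassium channel subunit needed for chloride secretion, stood at 193, 185, 221 and 312 CPM against 728, 625, 887 and 945 CPM, and Slc19a2, a thiamine transporter, at 18.8, 18.7, 17.1 and 23.3 CPM against 65.99, 72.4, 70.1 and 75.6 CPM. Rgcc, a cell cycle regulator, stood at 15.2, 22.2, 26.9 and 36.8 CPM against 79.5, 83.96, 145 and 179 CPM, and Jaml, a junctional adhesion protein, at 55.02, 60.2, 50.5 and 84.8 CPM against 389.5, 287, 257 and 347 CPM. Levels within each fraction differed far less than between fractions for Slc19a2. The others by the same rule were Slc38a4, an amino acid transporter (log2 -4.22), Serpine2, a protease inhibitor (-3.998), Sdr16c5, a retinol dehydrogenase (-3.51), Cenpi, a centromere protein (-3.499), Kif20a, a mitotic kinesin (-3.301), Zfp951 (-4.36), Sectm1a (-3.58), BC055324 (-3.31), Eldr (-2.02) and Platr25 (-2.79). With 1 animal left out, calls were lost for Slc38a4 without BN45 (0.0552), Serpine2 without BN45 or BO57 (0.0768 and 0.0781), Cenpi without BN45 (0.0911), Zfp951 without BN45, BO57 or BP04 (0.107, 0.0684 and 0.0636), Sectm1a without BN45 (0.0811) and BC055324 without BO25 or BP04 (0.0633 and 0.0769) (adjusted p in brackets).

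The 4 Paneth-fraction libraries were not alike, and the gene groups did not vary together. All 18 Paneth cell markers tested were highest in BN45, and 17 were lowest in BO57. Tuft cell markers were instead highest in BO57 for 19 of 23 and lowest in BO25 for 18. Of 26 enteroendocrine markers 14 were highest in BO57 and 9 in BO25, and 12 were lowest in BN45. S phase genes were lowest in BN45 for 27 of 41 and highest in BP04 for 32, and G2 and mitosis genes lowest in BN45 for 26 of 40 and highest in BO25 for 20. The median member's highest library exceeded its lowest 5.83-fold for Paneth cell markers, 2.67-fold for enteroendocrine and 1.91-fold for tuft cell markers, on CPM + 1. BN45 also had the highest share of counts in its 10 leading genes and the lowest mitochondrial share, 3.19%. Without BN45 the lists still gave 17 Paneth cell, 23 enteroendocrine and 20 tuft cell markers called higher, and 35 G2 and mitosis genes called lower.

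**Figure D4:**
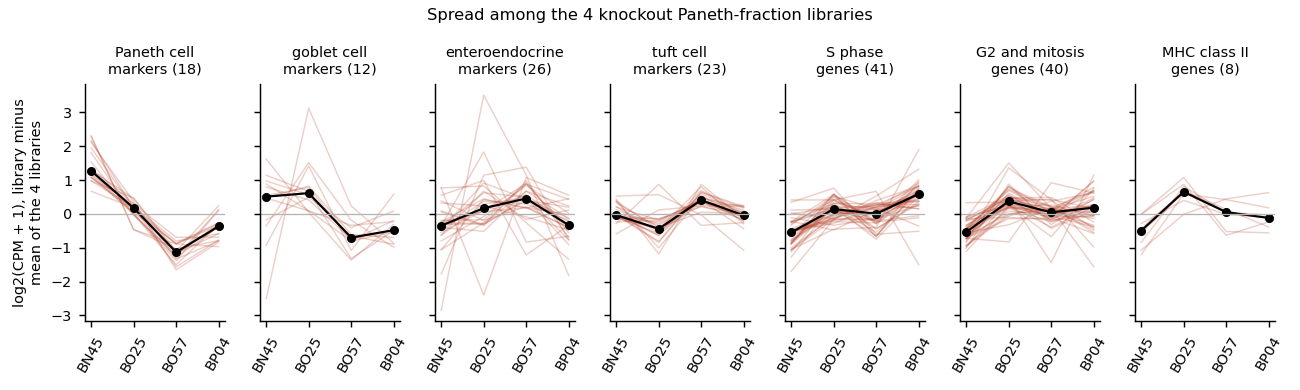
For 7 gene lists, each thin line is 1 tested member and gives its level in the 4 Paneth-fraction libraries as log2(CPM + 1) minus its mean over them (y axis), by animal (x axis, in no order); black points are the medians. Paneth cell markers have a median deviation of 1.28 in BN45 and -1.13 in BO57, while tuft cell markers have 0.41 in BO57.

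In control animals the same contrast gave a closely matching picture. A fit over 16 libraries of both genotypes called 5298 of 18393 genes (28.8%) between the fractions in knockout and 5589 (30.4%) in control animals. Of the 4892 genes called above, 4811 (98.34%) had the same sign in controls and 3638 (74.4%) also passed there. The controls are other animals, so no library is shared. Lyz1 had log2 fold changes of 7.69 in knockout and 7.61 in control animals, Wnt3 4.92 and 5.23, Lgr5 -1.63 and -1.59, and Ncapg -2.22 and -1.596. The test of the difference itself, the interaction of fraction and genotype, called 0 of 18393 genes by edgeR, with 864 at an unadjusted p under 0.05 and a smallest adjusted p of 0.42. DESeq2 called 84. In simulated counts with 200 changed genes this interaction test recovered 38% of 4-fold and 3% of 2-fold differences, so differences of such sizes could be missed.

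Genes with the smallest p for that difference did not pass and are given as values, in CPM on the scale of the 16 libraries. Cyp2c55, a cytochrome P450, stood at 5.12, 12.1, 23.2 and 6.66 CPM in the Paneth fraction and 35.6, 30.5, 16.6 and 8.27 CPM in the stem cells of knockout animals. In control animals (BN44, BO27, BO58 and BP03) it stood at 0, 0.1297, 0 and 0.207 CPM and 9.96, 26.3, 3.55 and 25.7 CPM. The control Paneth fraction was thus nearly without it while the knockout Paneth fraction was not (difference 6.73 on the log2 scale, adjusted p = 0.4203). Gemin6, Mrpl11, Hint2 and Gatb had positive differences of 1.48, 1.93, 1.63 and 2.66, and Fkbp9, Cip2a, Usp31, Ltn1 and Gsn negative ones of -2.02, -1.16, -2.22, -0.97 and -3.07 (adjusted p at least 0.765). Apoa1 had log2 fold changes of 3.97 in knockout and -0.39 in control animals and Fabp1 4.68 and 2.21, and neither difference passed (adjusted p = 1.00 each).

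**Figure D5:**
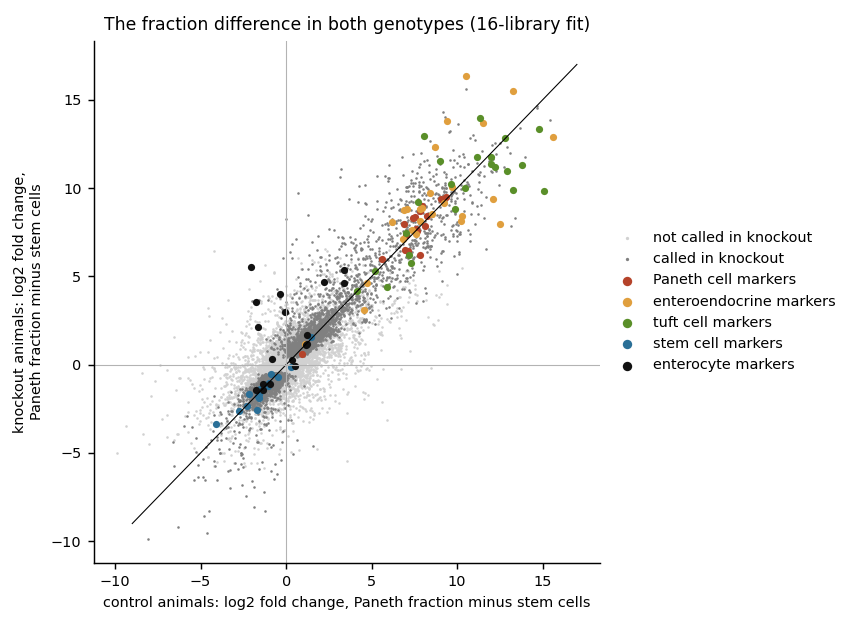
Each point is 1 gene: log2 fold change, Paneth fraction minus stem cells, in control animals (x axis) and in knockout animals (y axis), from 1 fit over 16 libraries; the line marks equal values. Paneth, enteroendocrine, tuft and stem cell markers lie along the line, and some enterocyte markers lie above it, such as Apoa1 at 3.97 in knockout and -0.39 in control animals.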

How the data were processed

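RNA of sorted crypt cells was amplified as low-input cDNA and sequenced. The authors deposited raw counts per Ensembl gene, made with featureCounts 2.0.1 on mm10 with Ensembl 98, unstranded, for read pairs of mapping quality 1 or more, per the file headers. The aligner was not given in the sources used here. Base calls came from bcl2fastq 2.20.0, per the submitters' processing notes. Unstranded counts do not separate a gene from its antisense partner.

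The table held 55421 genes, of which 55240 were matched to symbols in GENCODE M21; 92 ERCC rows were left out. Counts were fitted with edgeR 4.0.16 (R 4.3.3): TMM scaling, filterByExpr, the quasi-likelihood F test with the animal as block over 8 libraries, and Benjamini-Hochberg adjustment at 0.05. The interaction used 16 libraries. The animal pairs the fractions by the labels; correlations of paired deviations were 0.057 to 0.096. With the animal as block, p-values measure how far the fraction difference varied between these animals, not the spread of their levels. On simulated counts with 200 changed genes the fraction test made 6 false calls. Figures were drawn in Python 3.11.15 with matplotlib 3.10.9.

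The lists and genes were chosen with earlier results of these data known. Genes were named by rule: per direction the 12 largest changes and 8 smallest p at a mean of 5 CPM or more with non-overlapping groups, up to 6 members per list at 1 CPM or more, whole ligand, COMPASS, Notch and Reg lists, and 5 interaction genes per direction. Mmp7, Defa30, Dclk1, Gcg, Sst, Muc2, Olfm4, Neurog3 and Msi1 were named after their values were seen. Some genes that the rule names are not reported here. Alternatives left out the block, 1 animal, the low-count filter or the 20 most abundant genes, or used other scalings, a filter at 5 CPM, or DESeq2 1.42.0. Floors of 3 counts and counting intervals cover counting error only.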

Additional observations from a re-analysis of the deposited data

Results flagged for a closer look

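Among the levels given for named genes, 1 library stood apart from the other 3 of its fraction in 22 of 324 groups of 4, by a gap test that chance alone meets in about 1 in 20 groups. In the Paneth fraction, BO57 was highest for Isl1 (213 CPM, next 121), Rgs22 (80.6, next 53.8) and Ncoa6 (43.3, next 37.4). BP04 was highest for Top2a (117 CPM, next 81.1) and Eldr (24.5, next 11.4), BN45 for Ephb3 (47.1, next 22.3) and Tgfa (19.6, next 7.89), and BO25 for Hes5 (0.329, next 0).

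In stem cells, BN45 was highest for Cd24a (449.9 CPM, next 293), Pmaip1 (238, next 71.6), Hbegf (128, next 38.7) and Hcfc1 (54.3, next 36.7). BP04 was highest for Slc38a4 (15.7 CPM, next 10.6), Efnb2 (7.12, next 2.94), Hey1 (0.714, next 0.0198), Trpm5 (0.582, next 0.0858) and Abcc8 (0.132, next 0.0198). BO25 was highest for Chgb (2.71 CPM, next 0.504) and Gip (0.257, next 0) and lowest for Cxxc1 (8.89, next 13.3) and Serpine2 (5.42, next 10.4), and BO57 was highest for Sst (1.19, next 0.107).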

How the results depend on the processing

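The fewest of the 4892 genes kept their call when 1 animal was left out, 2715 to 3308 of them. Those fits gave 2827 to 3581 calls, 1585 to 2128 of them higher and 1097 to 1453 lower. Without the animal as replicate block 4955 genes were called, 4411 of them shared. Other scalings gave 4873 (RLE) and 4982 (upper quartile), a filter at 5 CPM gave 4573, no filter 5207 of 37829 genes, and leaving out the 20 most abundant genes 4942. The choice of test also moved the count: DESeq2 called 6949, with 4888 of the 4892 among them. The higher genes made up 56.0% of calls, 51.8% with upper-quartile scaling and 61.3% without BO57. The median log2 fold change of all genes stayed between -0.02 and 0.06 except without the low-count filter, where it was 0.46.

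For the interaction with genotype, 0 genes were called by edgeR with the other scalings, the 5 CPM filter, without the block and without any 1 animal (0 to 0, higher and lower alike). DESeq2 called 84 (60 positive, 24 negative) and edgeR without the low-count filter 39 (24 positive, 15 negative); the cause was not tested.

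Of 165 named genes with a test, 116 kept their direction and their side of the threshold under every alternative run, and 100 of the 138 called ones kept their call. Cd68, Ms4a1 and Itgae were not among these 165. Reversals of sign concerned uncalled genes. Hes6 stood at log2 0.01 with RLE scaling, 0.01 by DESeq2, 0.04 with the 5 CPM filter and -0.192 to 0.176 with 1 animal left out. With 1 animal left out Jag1 ranged from -0.953 to 0.227, Hcfc1 from -0.061 to 0.335, Fkbp9 from -0.426 to 0.047 and Reg1 from -0.003 to 0.547. Some genes that did not pass were called under other settings (adjusted p in brackets). DESeq2 called Neurog3 (4.99e-05), Msi1 (0.0116), Kmt2d (0.00953), Areg (0.00572) and Kdm6a (0.0257). The fit without the block called Msi1 (0.0245), Kmt2d (0.0279) and Areg (0.044), the 5 CPM filter Kmt2d (0.0395), Kdm6a (0.0454) and Areg (0.0356), and no filter Neurog3 (0.0153) and Areg (0.0225). Areg also passed with upper-quartile scaling (0.0471), without the 20 most abundant genes (0.0499) and without BO57 (0.0321), as did Neurog3 without BO57 (0.0409). Depth limits genes at or near 0 in stem cells, where a fold is a lower bound or has a wide counting interval.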
